A study of Mus musculus with 14 samples.

Results

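The genes described here are 10 genes of tumour necrosis factor (TNF) signalling and of NF-kB feedback, namely Tnf, Tnfrsf1b, Tnfaip3, Nfkbia, Nfkbiz, Nfkb1, Nfkb2, Relb, Birc3 and Icam1. They were named as a set and matched by gene symbol. All 10 were found once in each deposited table, among 56953 genes after BaCl2 and 14330 genes after glycerol, and all 10 passed the filter on low counts. The libraries are of fibro-adipogenic progenitors (FAPs), mesenchymal stromal cells of muscle that can form fat and fibrous tissue, sorted magnetically from the injured TA muscle 3 days after injury and extracted without culture. The groups were SMA after BaCl2 (3 libraries), WT after BaCl2 (3), SMA after glycerol (4) and WT after glycerol (4), 14 libraries in all. SMA is read as spinal muscular atrophy. BaCl2 destroys fibres that then regenerate, and glycerol leaves more fat between regenerating fibres. The labels name neither the SMA allele, the strain, the age, the sort antibodies nor separate animals, so the p-values reflect the spread among these libraries alone, which may be technical. Because the batch label is the injury itself, effects of injury and of batch cannot be told apart.

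TNF is a secreted cytokine that binds receptors on neighbouring cells and starts a kinase cascade that frees NF-kB, a family of paired transcription factors held in the cytoplasm by IkB proteins. NF-kB then switches on its own brakes, among them the IkB gene Nfkbia and the ubiquitin-editing enzyme gene Tnfaip3, so that the response ends soon after the signal. In injured muscle TNF comes largely from infiltrating macrophages, and FAPs respond to it.

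Smn1, the gene altered in the disease, was at 9.995 to 11.96 CPM in SMA against 15.34 to 17.15 CPM in WT libraries after BaCl2, and at 640 to 806 normalized counts in SMA against 935 to 1209 in WT libraries after glycerol. CPM is the count of a gene per M (mega) counts of its scaled library. Totals after BaCl2 ran between 97.7 M and 136 M a library. The glycerol values were deposited as normalized counts, so their depth is unknown. Of 15 markers of macrophages and monocytes, 14 were higher in SMA after BaCl2 (edgeR, adjusted p under 0.05) and 6 after glycerol (limma), with 0 lower. Their summed level was 2007 to 2880 CPM in SMA libraries and 1081 to 1503 CPM in WT libraries after BaCl2. After glycerol it was 113086 to 276455 normalized counts in SMA and 97561 to 125955 in WT libraries, and no marker was at 0 in a library. The low SMA value after glycerol is that of SMA library 3. Of 10 FAP markers 0 were higher and 3 were lower in SMA after BaCl2 (Dpt, Ly6a and Lum), and 0 passed after glycerol. Their summed level after BaCl2 was 21130 to 29660 CPM in SMA libraries, below the 31840 to 35430 CPM of WT libraries. Most of that sum is Col1a1 alone, whose group mean was 20786 CPM for SMA, against 29118 CPM for WT. The 10 markers were also weighted alike, as a mean log2 level relative to the WT mean. SMA libraries 1, 2 and 3 then stood at -0.38, -0.09 and -0.20. WT libraries 1, 2 and 3 stood at 0.002, 0.07 and -0.07, so SMA library 2 was only just below WT library 3. Pdgfra, the defining surface marker of FAPs, spanned 714 to 1015 CPM across SMA and 822 to 940 CPM across WT libraries and did not pass. Fewer cells of a type and less RNA per cell cannot be told apart in such bulk samples.

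After BaCl2, 4 of the 10 genes rose in SMA and 0 fell. These were the cytokine gene Tnf, the TNF receptor gene Tnfrsf1b, the brake gene Tnfaip3 and the adhesion gene Icam1, by 1.36-fold to 1.98-fold in their mean CPM. The NF-kB subunit genes, the IkB genes and Birc3 did not pass. Among all 20119 genes tested, 4.29% passed, 2.73% as higher and 1.56% as lower. The median log2 fold change was 0.10 over the 10 genes, beside 0.00 over all genes tested. Of the 10, 6 were positive, beside 9940 of all 20119 genes. In the same 4 genes every SMA library lay above every WT library, as at 12.2% of all genes, and in 0 of the 10 did every SMA library lie below every WT library, as at 13.1% of all genes.

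Tnf, the ligand, had 68.9, 63.8 and 43.0 CPM in SMA libraries 1, 2 and 3, against 28.0, 31.2 and 29.8 CPM in WT libraries 1, 2 and 3. The groups did not overlap, and SMA library 3 was the lowest of its group. Its log2 fold change was 0.98 (SE 0.15, edgeR adjusted p = 0.00847). Tnfrsf1b encodes TNFR2, the receptor that is found mainly on leukocytes and some stromal and endothelial cells. It had 200, 190 and 158 CPM in SMA libraries, against 122, 116 and 110 CPM in WT libraries. Here too the groups were apart, with a log2 fold change of 0.65 (SE 0.09, adjusted p = 0.00604).

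Tnfaip3 encodes A20, which removes activating ubiquitin chains from the TNF receptor complex. It had 237, 236 and 179 CPM in SMA libraries, against 167, 148 and 159 CPM in WT libraries. The lowest SMA library was library 3, close above WT library 1, and the log2 fold change was 0.46 (SE 0.10, adjusted p = 0.0349). Icam1, the adhesion molecule that leukocytes bind, had 258, 278 and 199 CPM in SMA libraries, against 183, 185 and 171 CPM in WT libraries. Its log2 fold change was 0.45 (SE 0.11, adjusted p = 0.0459), just within the threshold of 0.05.

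The other 6 genes were nearly level between genotypes after BaCl2. Nfkbia, which encodes IkB-alpha, the first inhibitor remade after NF-kB acts, had 442, 465 and 372 CPM in SMA libraries, against 401, 463 and 433 CPM in WT libraries. The ranges overlapped, and its log2 fold change was -0.02 (SE 0.09, adjusted p = 0.942). Nfkbiz encodes IkB-zeta, a nuclear IkB protein that helps switch on a second set of genes. It was at 390 to 418 CPM in SMA libraries, against 407 to 433 CPM in WT libraries, a log2 fold change of -0.06 (adjusted p = 0.65). Of the subunit genes, Nfkb1, the source of p50, had 449, 422 and 365 CPM in SMA libraries, against 364, 386 and 341 CPM in WT libraries (log2 fold change 0.18, SE 0.08, adjusted p = 0.27). Nfkb2, the source of p52, was at 164 to 176 CPM in SMA libraries, against 166 to 174 CPM in WT libraries (0.02, adjusted p = 0.902). Relb, the partner of p52 in the non-canonical branch, was at 39.9 to 41.4 CPM in SMA libraries, against 37.6 to 44.8 CPM in WT libraries (-0.02, adjusted p = 0.905). Birc3, which encodes the ubiquitin ligase cIAP2 of the receptor complex, was at 144 to 156 CPM in SMA libraries, against 140 to 161 CPM in WT libraries (-0.04, adjusted p = 0.822). Ranges of all 6 genes overlapped between the genotypes.

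**Figure D1:**
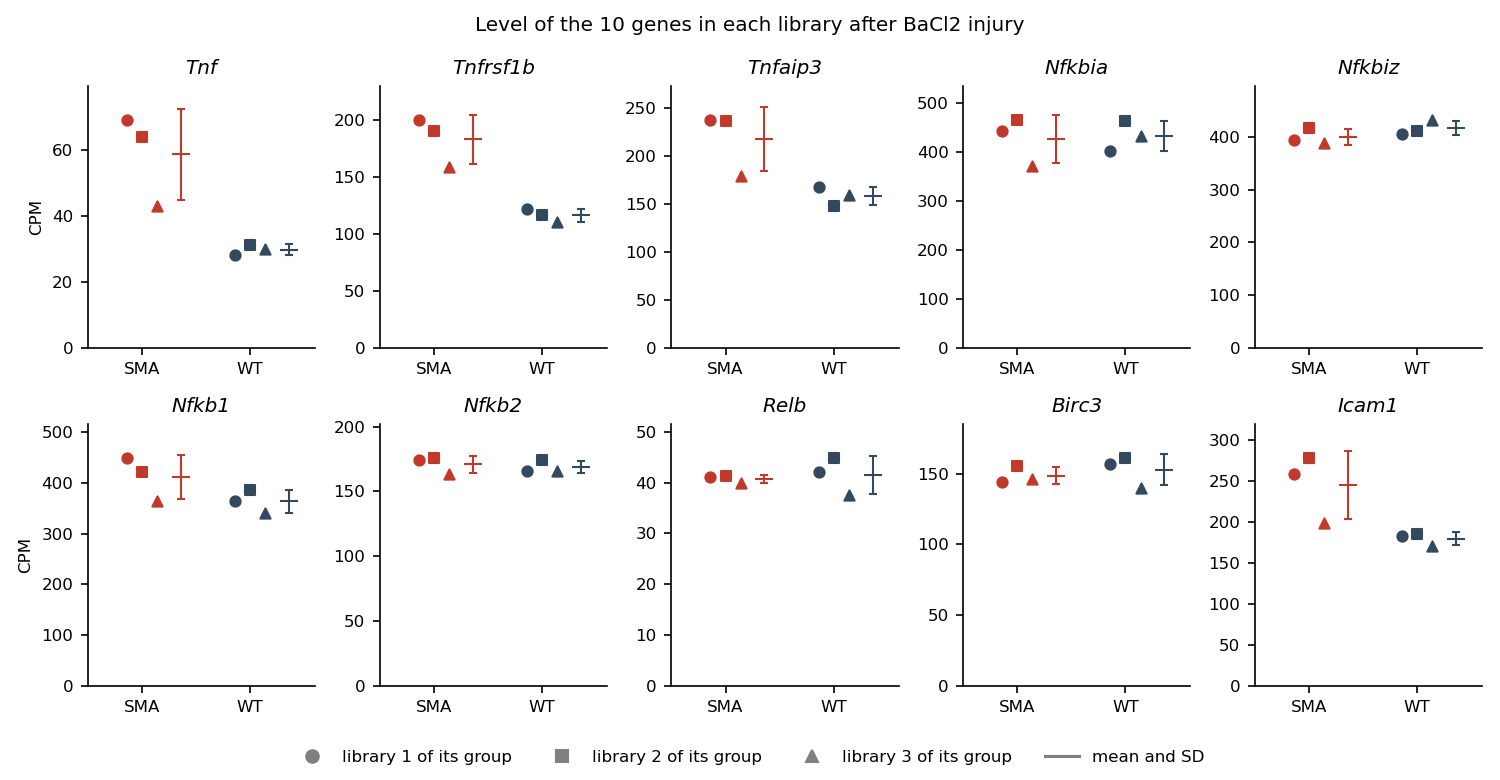
Level of each of the 10 genes after BaCl2, in CPM from 0, for 3 SMA libraries (left, red) and 3 WT libraries (right, blue), with the mean and SD of each group. Tnf, Tnfrsf1b, Tnfaip3 and Icam1 lie higher in every SMA library than in any WT library, and SMA library 3 (triangle) is the lowest SMA library for 9 of the 10 genes.

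SMA library 3 was the lowest SMA library for 9 of the 10 genes, all but Birc3, as at 34.8% of all genes. It also had the lowest macrophage marker sum of the SMA libraries, 2007 CPM, beside 2880 and 2385 CPM in SMA libraries 1 and 2. The part of the macrophage markers in the rises was not tested. The count of passing genes depended on which libraries entered. Leaving out SMA library 1, 2 or 3 gave 2, 1 and 4 passing genes of the 10, and leaving out WT library 1, 2 or 3 gave 2, 2 and 0. The share of all genes that passed moved with it, to 2.69%, 0.695% and 7.57% without SMA library 1, 2 or 3 and to 3.18%, 0.776% and 0.196% without WT library 1, 2 or 3. Tnfaip3 and Icam1 passed only when SMA library 3 was the one left out, with adjusted p of 0.0628 to 0.164 and 0.102 to 0.191 when another was. Tnf missed the threshold when SMA library 2 (adjusted p = 0.0516) or WT library 3 (adjusted p = 0.0666) was left out, and Tnfrsf1b when WT library 3 was (adjusted p = 0.056). Every one of these fits kept the 4 genes positive, with log2 fold changes of 0.85 to 1.17 for Tnf, 0.59 to 0.76 for Tnfrsf1b, 0.40 to 0.59 for Tnfaip3 and 0.35 to 0.58 for Icam1. With SMA libraries 1 and 2 both left out, so that the spread of the remaining SMA library is taken from the WT group, 0.487% of all genes passed. Tnf passed at 0.53 (adjusted p = 0.0444), and the other 3 did not, with log2 fold changes of 0.44 for Tnfrsf1b, 0.18 for Tnfaip3 and 0.15 for Icam1. The authors' deposited table calls the same 4 of the 10 genes after BaCl2, and 13.8% of the genes it tests.

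After glycerol, 0 of the 10 genes passed, beside 2.87% of the 14330 genes tested with limma (1.7% as higher and 1.17% as lower). The median log2 fold change was 0.28 over the 10 genes and 0.00 over all genes. Of the 10, 8 were positive, beside 7163 of all 14330 genes. At an unadjusted p under 0.05 there were 3 of the 10 (Tnfrsf1b, Nfkbia and Tnfaip3), beside 23.3% of all genes. No gene of the 10 had its groups apart, where every SMA library lay above every WT library at 6.59% of all genes and below at 7.54%. Fold changes after glycerol are on the log2(value + 1) scale.

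Tnf had 6041, 5342, 2418 and 6953 normalized counts in SMA libraries 1 to 4, against 3802, 3407, 2762 and 3095 in WT libraries 1 to 4. SMA library 3 was below every WT library, and the other 3 SMA libraries were above all of them. The log2 fold change was 0.57 (SE 0.29, limma adjusted p = 0.267). Tnfrsf1b had 11895, 14166, 9490 and 14437 normalized counts in SMA libraries, against 7968, 7955, 7891 and 9857 in WT libraries. SMA library 3 and WT library 4 were the pair that overlapped, and the log2 fold change was 0.56 (SE 0.13, adjusted p = 0.0601). In the authors' deposited table Tnfrsf1b passes (0.57, adjusted p = 0.00196), as do 12.5% of the genes it tests, and the other 9 genes do not.

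Among the brake genes, Tnfaip3 had 22533, 20759, 28247 and 25709 normalized counts in SMA libraries, against 14963, 11878, 10449 and 29355 in WT libraries. WT library 4 was thus the highest of all 8 and the other WT libraries were below every SMA library (log2 fold change 0.66, SE 0.28, adjusted p = 0.199). Nfkbia had 33394, 33369, 38442 and 38394 normalized counts in SMA libraries, against 26091, 26044, 23446 and 39480 in WT libraries. It showed the same order, with WT library 4 highest (0.35, SE 0.15, adjusted p = 0.196). Nfkbiz had 36356, 31409, 44493 and 38490 normalized counts in SMA libraries, against 29690, 31201, 27077 and 41934 in WT libraries. SMA library 3 was its highest and WT library 4 followed (0.22, SE 0.14, adjusted p = 0.376).

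Icam1 had 22110, 24324, 34477 and 27131 normalized counts in SMA libraries, against 20306, 19456, 17012 and 29651 in WT libraries. Without WT library 4 the ranges would not meet, and the log2 fold change was 0.33 (SE 0.18, adjusted p = 0.299). Nfkb1 had 20081, 18738, 34505 and 22438 normalized counts in SMA libraries, against 23757, 20381, 22030 and 35934 in WT libraries. Here SMA library 3 and WT library 4 stood far above the rest of their own groups, and the log2 fold change was -0.10 (SE 0.22, adjusted p = 0.824). Relb had 1923, 2776, 3354 and 1279 normalized counts in SMA libraries, against 2813, 2517, 2571 and 2305 in WT libraries. The SMA values enclosed the WT values (-0.22, SE 0.26, adjusted p = 0.649). Nfkb2 was at 7752 to 9980 normalized counts in SMA libraries, against 7708 to 9984 in WT libraries (0.02, SE 0.10, adjusted p = 0.927). Birc3 was at 6804 to 9135 normalized counts in SMA libraries, against 5930 to 9536 in WT libraries (0.05, SE 0.14, adjusted p = 0.873).

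**Figure D2:**
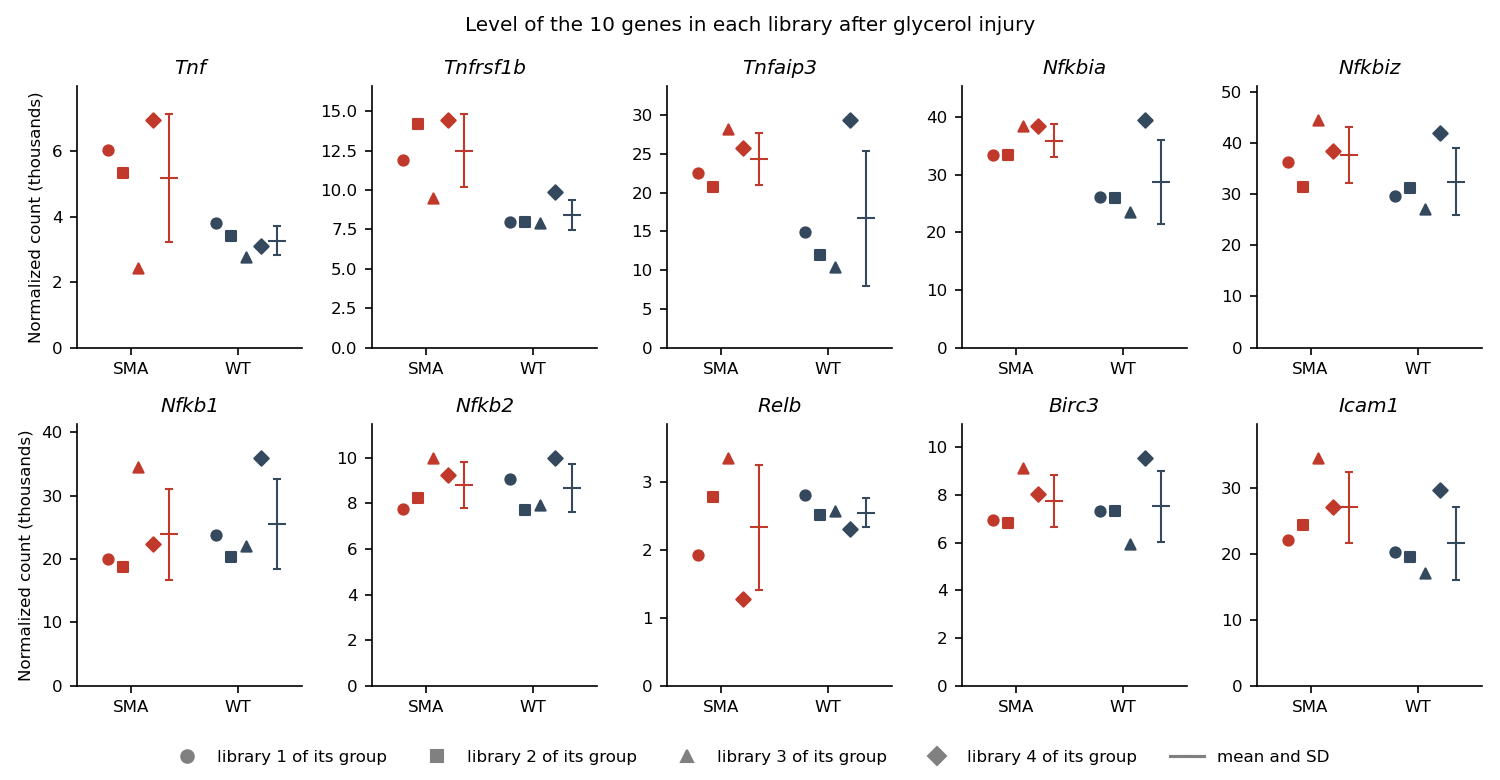
Level of each of the 10 genes after glycerol, in kilo-units of the normalized count, from 0, for 4 SMA libraries (left, red) and 4 WT libraries (right, blue), with the mean and SD of each group. WT library 4 (blue diamond) stands above the other WT libraries for 8 genes, and SMA library 3 (red triangle) is the highest SMA library for 8 genes but the lowest for Tnf and Tnfrsf1b.

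SMA library 3 and WT library 4 stood apart from their groups in several of the 10 genes. This pair was picked from the values of these genes, so the counts of the 10 below describe that choice and are no independent support. In 7 of the 10 genes (Tnfaip3, Nfkbia, Nfkbiz, Nfkb1, Nfkb2, Birc3 and Icam1) they were the highest pair of the 8 libraries, as at 4.36% of all genes. WT library 4 was the highest WT library for 8 of the 10 genes, all but Tnf and Relb, as at 28.3% of all genes. SMA library 3 was the highest SMA library for 8, all but Tnf and Tnfrsf1b, as at 30.8% of all genes. The macrophage marker sum was 113086 normalized counts in SMA library 3 and 204207 to 276455 in the other SMA libraries, and it was 125955 in WT library 4 and 97561 to 122701 in the other WT libraries. The summed level of 18 dissociation and immediate early genes was 1050270 to 1123830 in SMA and 963707 to 1020800 normalized counts in WT libraries, lowest within either group in SMA library 3 and WT library 4. WT library 4 was also apart in endothelial markers, with a sum of 17843 normalized counts beside 12109 to 12961 in the other WT libraries, and it had the highest FAP marker sum of the 8 libraries, 2253860. SMA library 3 had the lowest FAP marker sum, 1642700, and an endothelial sum of 9501, within the range of the other SMA libraries. The FAP sum is mostly Col1a1, with a mean of 1420500 normalized counts in SMA and 1557800 in WT libraries. With the 10 FAP markers weighted alike, as their mean log2 level relative to the WT mean, SMA library 3 stood at 0.20. SMA libraries 1, 2 and 4 stood at -0.05, -0.11 and 0.29, and WT libraries 1 to 4 at -0.23, 0.15, -0.11 and 0.19. The part of these markers in the results was not tested.

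With these 2 libraries left out, 5 of the 10 genes passed as higher after glycerol, beside 8.7% of all genes in either direction. The pair was picked from the values of these genes, so leaving it out widens several of the differences by construction and is no independent support. The log2 fold changes were then 0.88 for Tnf (SE 0.13, adjusted p = 0.00792), 0.76 for Tnfrsf1b (SE 0.08, adjusted p = 0.00158) and 0.90 for Tnfaip3 (SE 0.13, adjusted p = 0.00737). Nfkbia stood at 0.48 (SE 0.07, adjusted p = 0.00835) and Icam1 at 0.37 (SE 0.09, adjusted p = 0.0479). Without SMA library 3 alone Tnf (0.91, adjusted p = 0.00263) and Tnfrsf1b (0.68, adjusted p = 0.00385) passed, as did 11.5% of all genes. Without WT library 4 alone Tnfaip3 (0.97, adjusted p = 0.0479) and Nfkbia (0.51, adjusted p = 0.0483) passed, as did 0.572% of all genes. Without any other single library 0 of the 10 and at most 3 genes in all passed.

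**Figure D3:**
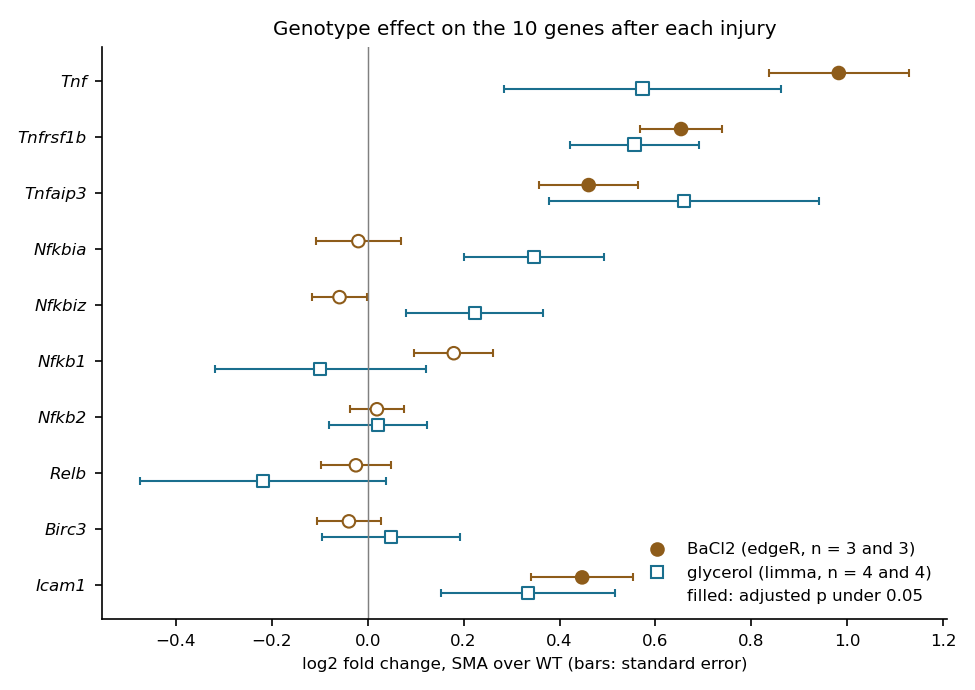
Log2 fold change of SMA over WT with its standard error for the 10 genes after BaCl2 (brown circles) and after glycerol (blue squares), filled where the adjusted p is under 0.05. The 4 filled points, all after BaCl2, are Tnf, Tnfrsf1b, Tnfaip3 and Icam1, and the glycerol bars are wider for each of the 10 genes.

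Whether SMA and WT differed by the same amount after either injury was tested as the log2 fold change after glycerol minus that after BaCl2. No gene of the 10 passed, beside 10.5% of the 13960 genes tested with the z test (5.53% with a positive and 5% with a negative difference). The difference was 0.37 for Nfkbia (SE 0.17, unadjusted p = 0.0326, adjusted p = 0.157), the only gene of the 10 with an unadjusted p under 0.05. It was 0.28 for Nfkbiz (SE 0.15, adjusted p = 0.242) and -0.41 for Tnf (SE 0.32, adjusted p = 0.464). In 1 joint limma fit with an interaction term 27 genes passed in place of 1470, and the 10 genes had adjusted p of 0.337 (Nfkbia) to 0.996 (Nfkb2). Without WT library 4 after glycerol, 3 genes passed the z test, as did 10.2% of all genes. They were Nfkbia (0.53, adjusted p = 0.000428), Nfkbiz (0.41, adjusted p = 0.0176) and Tnfaip3 (0.51, adjusted p = 0.0374). WT library 4 was picked from the values of these genes, so leaving it out widens these differences by construction and is no independent support. Leaving out any other single library of either injury gave 0 of the 10.

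Levels of different genes were compared per kb of exon length, from GENCODE vM21 gene models, which may differ from those the authors counted on. In all 4 groups Nfkbia was the highest of the 10 and Relb the lowest. After BaCl2 Nfkbia was at 265 CPM per kb in SMA and 268 CPM per kb in WT libraries, and Relb at 10.5 CPM per kb in SMA and 10.7 in WT libraries. Nfkbiz came next, at 79.9 CPM per kb in SMA and 83.2 CPM per kb in WT libraries, followed by Icam1 at 56.3 CPM per kb in SMA and 41.3 in WT libraries. Tnf was sixth in SMA at 35.7 CPM per kb and ninth in WT at 18.1 CPM per kb. In SMA libraries after BaCl2 the ranges of neighbours from Nfkb2 down through Tnf, Nfkb1 and Tnfaip3 to Birc3 overlapped, so that their order is not set, as did Icam1 and Tnfrsf1b. In WT libraries after BaCl2 neighbours overlapped only among Birc3, Tnfrsf1b and Nfkb1. After glycerol the levels of Nfkbia were 22300 normalized counts per kb in SMA and 17870 in WT libraries, those of Relb 600.5 in SMA and 657 in WT libraries, and those of Tnf 3166 in SMA and 1993 in WT libraries. Neighbours from Tnfaip3 down to Birc3 overlapped in both genotypes after glycerol, as did Nfkbiz and Icam1. In those gene models, exons of other genes lie opposite 18.1% of Nfkb2 and 11.7% of Icam1, and whether the counting used strand is not stated.

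The genes whose pattern over the 14 libraries was most like that of Tnf were Zc3h12d, Galnt6 and Lcp1. Likeness was the root mean square difference of the log2 values, each relative to the WT mean of its injury, and it was 0.183, 0.186 and 0.186 for these 3 genes, where the median of 12128 genes was 0.674. Lcp1 encodes L-plastin, an actin-bundling protein of leukocytes, and Zc3h12d an RNA-binding protein of immune cells. Lcp1 stood at 0.99 after BaCl2 (edgeR adjusted p = 0.0123) and 0.65 after glycerol (limma adjusted p = 0.146) on the log2 scale. The 3 genes were picked for closeness to Tnf in these same libraries. Fold changes near those of Tnf follow from that choice and are no separate support. Among the other 9 genes described here, Tnfrsf1b was nearest to Tnf at 0.296, and Relb was farthest at 0.857.

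A promoter window was found in RefSeq (GRCm38.p6) for 7 of the 10 genes, Tnf, Tnfrsf1b, Tnfaip3, Nfkbia, Nfkb2, Birc3 and Icam1, some with more than 1 start site. The 250 bases before each start were searched on both strands for the NF-kB consensus decamer (GGG, a purine, any pair of bases, a pair of pyrimidines, CC). Of 10 windows 5 held a match, belonging to Tnfaip3, Nfkbia and Nfkb2, while 7.25% of all 32851 RefSeq windows did. Several of the 5 are alternative starts of the same gene, Nfkb2. By gene, 3 of 7 held a match, and no share by gene was taken over all genes. The sites below are shown because they compare a gene that rose after BaCl2 (Tnfaip3) with others that did not pass (Nfkbia and Nfkb2). Capitals mark the decamer, and each sequence is written 5′ to 3′ on the strand of the gene. A match on the opposite strand therefore appears as its reverse complement.
Tnfaip3, chr10:19015516-19015545, minus strand: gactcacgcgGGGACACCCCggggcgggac
Tnfaip3, chr10:19015411-19015432, minus strand: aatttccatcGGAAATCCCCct
Nfkbia, chr12:55492657-55492686, minus strand: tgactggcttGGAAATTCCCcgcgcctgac
Nfkb2, chr19:46304688-46304717, plus strand: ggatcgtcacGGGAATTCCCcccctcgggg
Nfkb2, chr19:46305695-46305724, plus strand: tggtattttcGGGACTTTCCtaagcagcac
The match of Nfkbia lies 20 to 29 bases before its start, and those of Tnfaip3 lie 3 to 12 and 116 to 125 bases before. The site of Nfkb2 at 30 to 39 bases before its first start overlaps a match shifted by 1 base, and another match follows at 2 to 11 bases. The last site shown lies 216 to 225 bases before a later start. A further Nfkb2 match, not shown, lies 227 to 236 bases before a start between these. No match in the windows of Tnf, Tnfrsf1b, Birc3 and Icam1 says only that these letters are not there. Matches were present both in a gene that passed after BaCl2 and in genes at -0.02 and 0.02 on the log2 scale.

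Genes around the 10 in the pathway were read from 5 lists with 77 genes, of which 76 were tested after each injury. Of these 10 rose and 4 fell after BaCl2, leaving 62 that missed the threshold. Among all genes tested after BaCl2, 2.73% passed as higher and 1.56% as lower, the shares to set beside each list below. After glycerol 4 rose and 0 fell, leaving 72, beside 2.87% of all genes (1.7% as higher and 1.17% as lower). Without any 1 of SMA libraries 1, 2 and 4 and WT libraries 1, 2 and 3, at most 3 genes in all passed after glycerol. Calls after glycerol, here and in the marker lists, thus depend on which libraries entered. In the list of TNF receptor signalling and the IkB kinases, 1 of 22 rose after BaCl2 and 1 fell. Cflar, the gene for the caspase-8 inhibitor cFLIP, rose to 163 ± 13.2 CPM in SMA, against 125 ± 2.64 CPM in WT libraries (SD, n = 3 each, log2 fold change 0.38, adjusted p = 0.0163). Traf5, a receptor adaptor gene, fell to 7.74 ± 0.566 CPM in SMA, against 10.5 ± 0.591 CPM in WT libraries (-0.44, adjusted p = 0.0339). Tnfrsf1a, the TNF receptor gene of most cell types, was at 311 ± 5.17 CPM in SMA libraries and 358 ± 33.5 CPM in WT libraries (-0.20, adjusted p = 0.152). After glycerol 0 of the 22 passed, and Tnfrsf1a stood at -0.09 (adjusted p = 0.262).

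Among the other NF-kB subunit and IkB genes, 1 of 6 rose after each injury, and it was Rel both times. The limit on glycerol calls given above applies to Rel as well. Rel encodes c-Rel, a subunit that is most abundant in blood cells. It had 81.2 to 91.8 CPM in SMA libraries and 65.8 to 70.2 CPM in WT libraries after BaCl2 (0.38, SE 0.07, adjusted p = 0.0143). After glycerol it had 8369 to 9552 normalized counts in SMA and 6318 to 7419 in WT libraries (0.37, SE 0.06, adjusted p = 0.0308), with the groups apart after either injury. Rela, the gene for p65, did not pass after BaCl2 (-0.05, adjusted p = 0.798) or glycerol (0.01, adjusted p = 0.975).

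Of 11 other negative regulators, 3 rose and 0 fell after BaCl2. Tnip3, an A20-binding protein gene, had 7.86 ± 0.474 CPM in SMA libraries and 2.99 ± 0.687 CPM in WT libraries (SD, n = 3 each, 1.39, SE 0.16, adjusted p = 0.00416). Tnip1, another A20 partner, stood at 0.33 (adjusted p = 0.0332) and Zc3h12a, which encodes the mRNA-cleaving enzyme regnase-1, at 0.29 (adjusted p = 0.029). After glycerol 0 of the 11 passed, with Tnip3 at 0.98 (SE 0.27, adjusted p = 0.0813). All 11 were positive, some by little, such as Tnip2 and Tax1bp1 at 0.04 each, beside 7163 positive of all 14330 genes.

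The 21 other target genes of NF-kB moved both ways after BaCl2, with 2 higher and 2 lower. Cd83, a membrane protein gene of activated immune cells, had 53.5 to 62.1 CPM in SMA libraries, against 25.0 to 40.7 CPM in WT libraries (log2 fold change 0.85, adjusted p = 0.0138). Traf1, a receptor adaptor gene, had 8.85 ± 0.583 CPM in SMA libraries and 5.92 ± 0.219 CPM in WT libraries (0.58, adjusted p = 0.0133). The falls were Vcam1, an adhesion gene that FAPs express, with 256 ± 10.9 CPM in SMA libraries and 355 ± 26.2 CPM in WT libraries (-0.47, adjusted p = 0.0078), and Il6 (-0.42, adjusted p = 0.0293). Icam1 and Vcam1, both adhesion genes, were thus higher and lower in the same libraries. After glycerol 3 rose, Cd83 (1.23, adjusted p = 0.0299), the interferon regulatory factor gene Irf1 (0.56, adjusted p = 0.0317) and the stress gene Gadd45b (0.39, adjusted p = 0.0471). Vcam1 was at 20523 to 30610 normalized counts in SMA and 21625 to 42988 in WT libraries there and did not pass (-0.20, adjusted p = 0.624).

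Of 16 other TNF family ligand and receptor genes tested, 3 rose and 1 fell after BaCl2, and 0 passed after glycerol. Tnfsf14, the gene for LIGHT, had 6.13 ± 0.827 CPM in SMA libraries and 2.78 ± 0.432 CPM in WT libraries (SD, n = 3 each, 1.14, adjusted p = 0.00666). Tnfrsf11a, which encodes RANK, rose by 0.96 (adjusted p = 0.00959) and Cd40, a receptor gene of antigen-presenting cells, by 0.75 (adjusted p = 0.0277). Tnfsf11, which encodes RANKL, the ligand of RANK, fell to 14.8 ± 3.08 CPM in SMA, against 25.3 ± 3.17 CPM in WT libraries (-0.77, adjusted p = 0.0171).

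**Figure D4:**
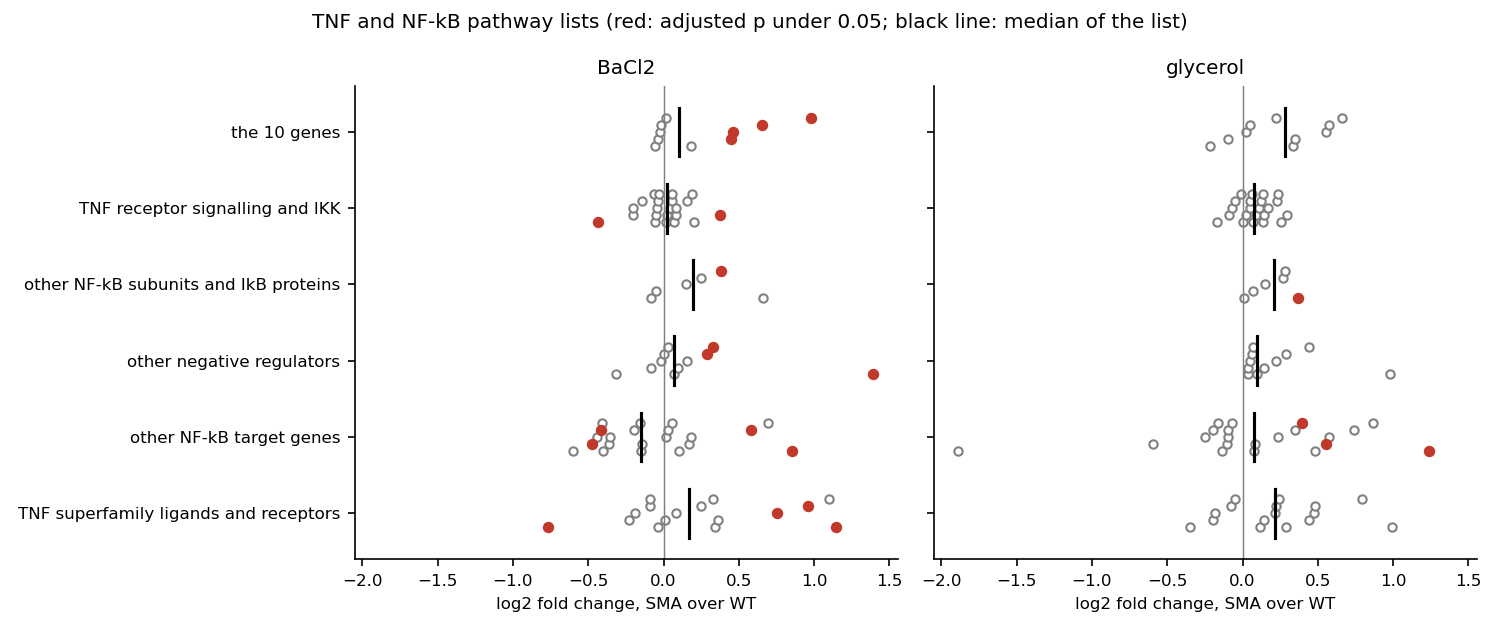
Log2 fold change of SMA over WT for each gene of the 10 and of 5 pathway lists, after BaCl2 (left) and after glycerol (right), red where the adjusted p is under 0.05, with the median of each list as a black line. After BaCl2 the lists hold 10 higher and 4 lower genes beside the 4 of the 10, and after glycerol 4 higher and 0 lower genes.

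Further cell types were read from their marker genes in the same libraries. Of 8 neutrophil markers 6 were tested, all but Retnlg and Ly6g. Of these, 2 were higher after BaCl2 (Csf3r and Trem1) and 1 after glycerol (Csf3r), beside 2.73% and 1.7% of all genes. The sums of all 8 after BaCl2 were 19.3 to 37.1 CPM in SMA libraries and 9.10 to 13.4 CPM in WT libraries. Of 8 endothelial markers 0 passed after BaCl2 and 2 were lower after glycerol (Tie1 and Cdh5), with sums there of 7360 to 9569 normalized counts in SMA and 12109 to 17843 in WT libraries. Of the lymphocyte markers 4 were tested after BaCl2 and 2 after glycerol, and 0 passed. Of 5 satellite cell markers 3 were tested, of which 1 (Des) was lower after BaCl2 and 0 passed after glycerol. Of the 18 dissociation and immediate early genes, which the sort itself can induce, 0 passed after BaCl2 and 2 were higher after glycerol, Egr1 (0.59, adjusted p = 0.0299) and Dusp1 (0.34, adjusted p = 0.0317). The part of any of these in the levels of the 10 genes was not tested.

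**Figure D5:**
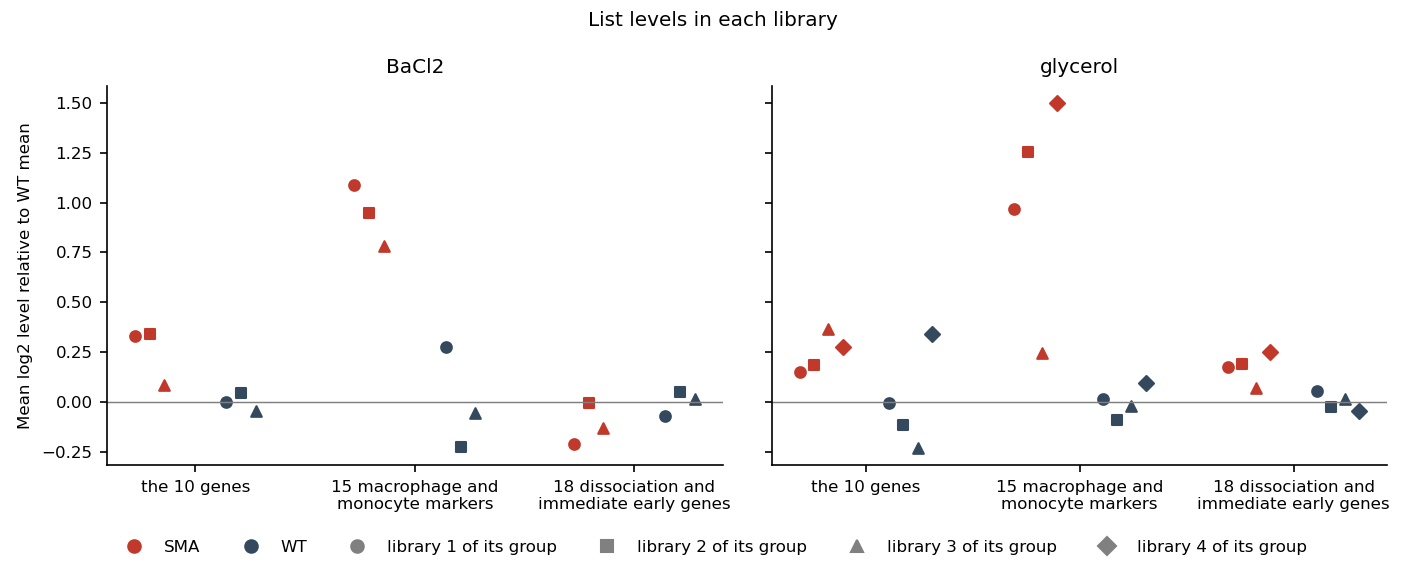
Mean log2 level of the 10 genes, of 15 macrophage and monocyte markers and of 18 dissociation and immediate early genes in each library, relative to the WT mean of its injury, for SMA (red, left) and WT (blue, right). After glycerol the macrophage markers of SMA library 3 stand at 0.24 and those of the other SMA libraries at 0.97 or above, while the 10 genes stand at 0.37 in SMA library 3 and 0.34 in WT library 4.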

How the data were processed

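RNA-seq libraries of sorted FAPs were analysed from 2 deposited tables. The labels' protocols name poly(A) selection and a directional library kit, and the submitters' processing notes name fastp, Salmon, featureCounts and DESeq2. An aligner, a build, an annotation or a strand setting is not given in the sources used here. BaCl2 values are read counts per gene as deposited. Glycerol values are a signal, the normalized counts deposited by the authors. The p-values and log2 fold changes of the authors' deposited tables are printed only where named so. Another 6 columns that repeat sample names in the BaCl2 table were not used.

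Counts were scaled with TMM, filtered with filterByExpr and tested with the quasi-likelihood F test of edgeR 4.0.16 in R 4.3.3, where the SE is the absolute log2 fold change over the root of F. Glycerol values were tested as log2(value + 1) with limma 3.58.1 and a mean-variance trend. The 2 effects were compared with a z test over genes in both tables. P-values were adjusted by Benjamini and Hochberg over all genes, with a threshold of 0.05. DESeq2 1.42.0 served as an alternative. Steps were tested on simulated data. The lowest count of the 10 genes in a BaCl2 library was 3612, and the lowest mean after glycerol was 2442 normalized counts.

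All 10 genes are named, with up to 4 passing genes per pathway list and comparison and with Tnfrsf1a, Rela, Rel and Vcam1 always, and the 3 genes most like Tnf among those at a mean of at least 1 CPM. Genes named from the marker lists are those that passed, with Pdgfra as the check of the cell type. The genes and lists were chosen with earlier results of these data known.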

Additional observations from a re-analysis of the deposited data

Results flagged for a closer look

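Among 20 sets of 4 glycerol values (10 genes, 2 genotypes), 2 held a library far from the other 3. The nominal rate is about 1 in 20 for independent, normally spread values, and no share over all genes was taken. The 20 sets share the same libraries and are not independent, and each flag fell on WT library 4. WT library 4 had 9857 normalized counts of Tnfrsf1b, and 39480 normalized counts of Nfkbia. The gap to the next WT library was 0.961 of the range of the 4 WT values for Tnfrsf1b and 0.835 for Nfkbia, both above Dixon's critical value.

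The genotype effect, as the log2 fold change after glycerol minus that after BaCl2, passed the z test as different for 7 of 76 pathway genes, or 9.21%, beside 10.5% of all genes. In all 7 the difference was positive, which for a signed value need not mean a larger effect after glycerol. All 18 dissociation and immediate early genes had a positive difference, beside 7289 of all 13960 genes, with 7 passing as positive and 0 as negative. Other lists shifted as well. Of 10 FAP markers 4 passed as positive and 0 as negative, and of 8 endothelial markers 0 passed as positive and 6 as negative. Of 15 macrophage and monocyte markers 0 passed. The part of any of these lists in the pathway differences was not tested. Among the pathway genes the difference was 1.47 for the chemokine gene Ccl5 (adjusted p = 1.33e-05) and 1.10 for the chemokine gene Cxcl10 (adjusted p = 0.00105). For Irf1 it was 0.70 (adjusted p = 9.53e-06). It was 0.60 for Zfp36, which encodes the mRNA-destabilising protein tristetraprolin (adjusted p = 0.000208), and 0.44 for Traf5 (adjusted p = 0.0117). It was 0.36 for Gadd45b (adjusted p = 0.0117) and 0.23 for the TWEAK receptor gene Tnfrsf12a (adjusted p = 0.0434). After BaCl2 and after glycerol in turn, the log2 fold changes were -0.60 and 0.87 for Ccl5, and -0.36 and 0.74 for Cxcl10. They were -0.14 and 0.56 for Irf1, -0.31 and 0.29 for Zfp36, and -0.44 and 0.004 for Traf5. Those of Gadd45b were 0.03 and 0.39, and those of Tnfrsf12a -0.09 and 0.14. None of these 7 pathway genes passed in the joint limma fit, where their adjusted p was between 0.0542 (Irf1) and 0.127 (Tnfrsf12a).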

How the results depend on the processing

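After BaCl2 the same number of the 10 genes, 4, passed with DESeq2, median-of-ratios factors or no low-count filter, while all passing genes numbered 1687 with DESeq2 and 1867 without the filter, against 863. With SMA libraries 1 and 2 left out together 1 of the 10 and 108 genes in all passed, and Nfkb2 stood at -0.046. Leaving out 1 library at a time gave 0 to 4 of the 10 and 41 to 1577 genes in all, and Nfkbia ranged from -0.080 to 0.078 and Relb from -0.093 to 0.033. After glycerol 0 of the 10 passed with another pseudocount, filter or scaling, and without the mean-variance trend 2 genes in all passed, against 411. Without SMA library 3 and WT library 4 together, chosen after seeing the data, 5 of the 10 and 1247 genes in all passed. Leaving out 1 library gave 0 to 2 of the 10 and 0 to 1645 genes in all, with Nfkb1 from -0.29 to 0.078, Nfkb2 from -0.041 to 0.091, Relb from -0.42 to 0.040 and Birc3 from -0.059 to 0.17. The difference between injuries gave 27 genes in the joint limma fit, against 1470, with Nfkb2 at -0.0031. Without the glycerol pair 2 of the 10 and 1955 genes in all passed, and Tnfrsf1b stood at 0.11. Leaving out 1 library gave 0 to 3 of the 10 and 1004 to 1969 genes in all, with Tnfrsf1b from -0.20 to 0.029, Nfkb2 from -0.060 to 0.072, Relb from -0.40 to 0.064, Birc3 from -0.020 to 0.21 and Icam1 from -0.25 to 0.050. The cause of these changes was not tested. With the replicate number as a block, 4 of the 10 and 1144 genes passed after BaCl2, 1 of the 10 (Tnfrsf1b, adjusted p = 0.0493) and 257 genes after glycerol, and 0 of the 10 and 1940 genes for the difference. Deviations of same-numbered libraries correlated at -0.100 to 0.071, and not every library matched its own number best, so the numbers are not taken as pairs. Depth is unknown after glycerol and limits none of the 10 genes after BaCl2.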
